A study of Mus musculus with 23 samples.

Results

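NF-κB transcription factors are dimers that inhibitor proteins of the IκB family hold inactive in the cytoplasm until an upstream kinase complex marks the inhibitor for degradation. Freed dimers enter the nucleus and switch on genes that include their own inhibitors, so the transcripts of those inhibitors both report and limit the activity of the pathway. In the gut epithelium the pathway responds to microbial products and cytokines and protects epithelial cells from death, and loss of its brakes in this tissue is known to sensitize the lining to inflammation.

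The genes described here were 10 NF-κB inhibitors, subunits and feedback targets, found by exact match of the gene symbol: Nfkbia, Nfkbib, Nfkbie, Nfkbiz, Tnfaip3, Tnip1, Bcl3, Relb, Nfkb2 and Birc3. Each symbol matched a single row, which made 10 of the 24917 loci in the count table, and no member sat at more than 1 locus.

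The samples were colonic epithelium of male C57BL/6 mice (C57BL/6J in the study's methods) that entered the diets at 6 weeks of age and stayed on them for 43 weeks. The LF group ate 10% fat throughout, the HF group ate 60% fat throughout, and the HFLF group ate 60% fat for 15 weeks and then 10% fat for 28 weeks. Epithelium was released from the whole colon with EDTA, and stranded libraries were made from total RNA after ribosomal RNA was depleted. The labels divide the 23 samples into batch 1, with 4 LF, 3 HF and 4 HFLF samples, and batch 2, with 4 LF, 3 HF and 5 HFLF samples. The labels do not say what a batch is, and they do not establish that samples of the same diet in the 2 batches came from different mice. The number of mice in each diet group is 5 in the study's methods. Over both batches LF had 8 samples, HF 6 and HFLF 9. If that number applies to these libraries, the groups hold fewer animals than samples and some mice were sequenced more than once. The p-values therefore measure differences against the spread between these samples and not between animals, and those of the fit of both batches count each sample as a replicate.

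Read counts assigned to genes ran from 29189922 to 46498521 per sample in batch 1 and from 31607019 to 65320947 in batch 2. The HF libraries were deeper at the median, with 46450956 counts in batch 1 against 35830760 for LF, and 45973207 in batch 2 against 38794499.5 for LF. The depth differed with diet, and its part in the results was not tested. Samples of a group were set against each other in 34 pairs by a chi-square of their counts per gene, which grows with depth and ran from 11.3 to 114. The highest 2 values were those of HF replicate 3 of batch 1 with HF replicates 1 and 2 (85.5 and 114), against 45.1 for the other pair of that group. In batch 2 HF replicate 2 had 72.7 and 55.6 with the other HF samples, against 21.4 for the pair without it. Other groups also held high values. In batch 1 these were 78.9 for LF replicates 1 and 3, 63.1 for LF replicates 3 and 4, and 66.6 for HFLF replicates 1 and 2. A total of 3 counts corresponded to between 0.0459 and 0.103 CPM (counts scaled to a library of 1000000), depending on the sample. Every member lay far above that floor: the smallest count of any member in any sample was 86, for Nfkbie, and the largest was 6500, for Nfkbiz. All 10 members passed the filter on low counts in both batches. On the opposite strand, Nfkbia shares 1898 bases with Mir1198, Nfkbib 714 bases with Gm6537 and Nfkb2 4 bases with Psd, and how reads in those bases were assigned is not known.

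Levels were compared between genes as CPM per kilobase of exon. In the LF samples of batch 1 this level was 44.7 ± 5.14 (SD, n = 4) for Nfkbia, 32.2 ± 4.11 for Nfkbiz and 28.9 ± 2.62 for Tnip1. Relb at 16.9 ± 1.54 and Nfkb2 at 16.5 ± 2.59 came next on the same scale and did not differ from each other beyond their spread. Tnfaip3 at 11.98 ± 1.97, Bcl3 at 10.4 ± 1.48 and Birc3 at 9.77 ± 0.842 CPM per kilobase formed a group in which each neighbour was within 1 SD of the next. Nfkbib at 6.54 ± 0.0824 and Nfkbie at 1.21 ± 0.0706 CPM per kilobase were the least abundant. Nfkbiz and Tnip1 were also within 1 SD of each other there, and in the LF samples of batch 2 they stood at 25.1 and 24.7 CPM per kilobase. In the HF samples of batch 2 Nfkbiz stood at 16.7 ± 0.784 (SD, n = 3), below Tnip1 at 22.5 ± 1.10 and within 1 SD of Relb at 17.5 ± 0.911 CPM per kilobase.

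**Figure D1:**
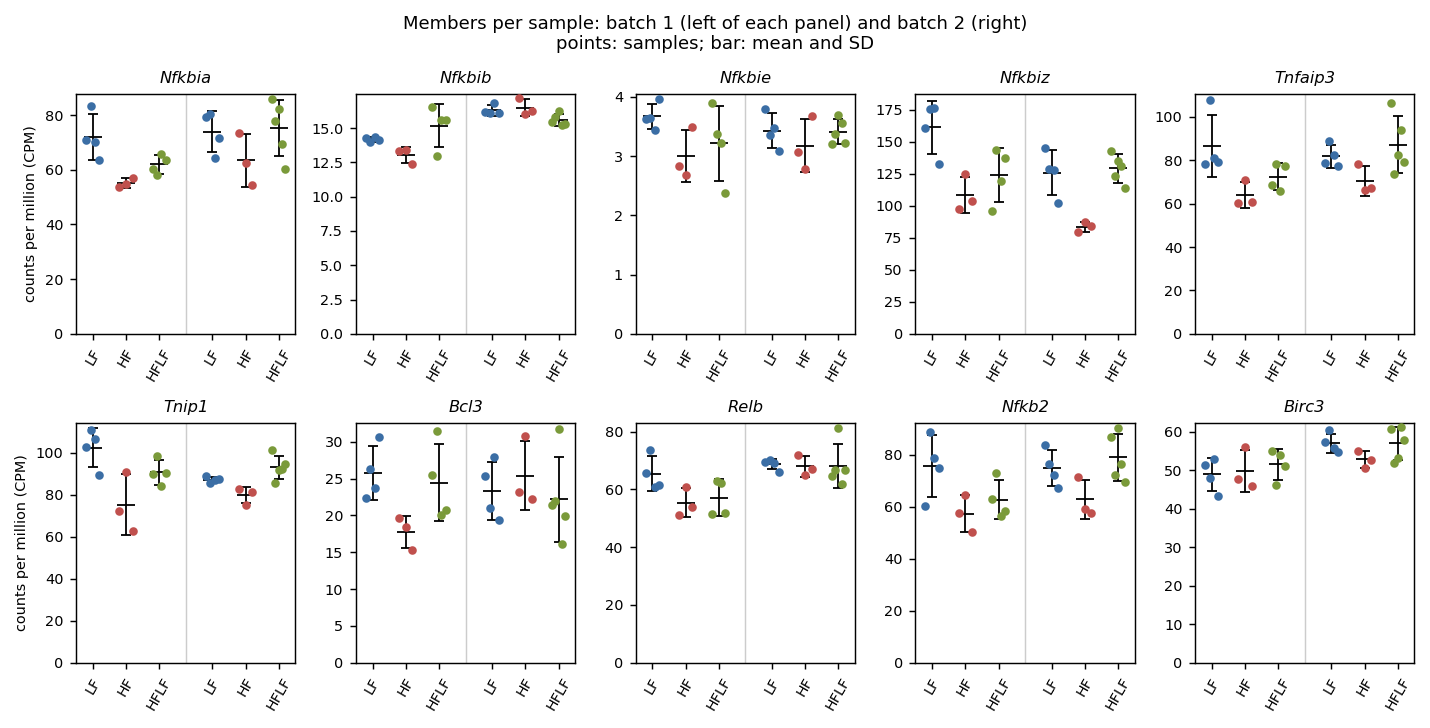
Normalized level of each of the 10 members in CPM, with 1 panel per gene and an axis that starts at 0. Points are samples, bars are the mean and SD, and the diets LF, HF and HFLF of batch 1 are drawn left of the vertical line and those of batch 2 right of it. In the panel of Nfkbiz the 3 HF samples of batch 2 sit between 79.6 and 87.4 CPM, below every other sample of that batch.

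The difference HF minus LF asked what a long high-fat diet does to these transcripts. Nfkbia, Nfkbiz and Tnfaip3 are members that the study named from its own comparison of HF and LF in this series. The counts and medians of members in this comparison, here and below, are therefore partly set by that choice and are not independent evidence. A gene was called where the edgeR quasi-likelihood test gave an adjusted p under 0.05 over all genes and the fold change exceeded 1.2. In batch 1, 0 of 10 members were called, beside 0% of the 14428 genes tested called lower. At an unadjusted p under 0.05, 7 of 10 members, all lower, and 3198 genes (22.2%) passed in that comparison. Of those genes 1467 were lower. The adjusted p of the members there ran from 0.139 to 0.887, and the smallest of any gene was 0.0546. With the same thresholds DESeq2 called 4 members (Nfkbia, Nfkbiz, Tnfaip3 and Tnip1) and 512 genes in batch 1, of which 216 genes were lower. The voom method of limma called 7 members and 2422 genes, of which 1262 genes were lower. In batch 2, 1 of 10 members (Nfkbiz) was called lower, beside 4.4% of 14377 genes. DESeq2 and voom also called Nfkbiz alone of the members, beside 7.17% and 7.98% of genes called lower. In the fit of both batches, with batch as a term, 5 of 10 members were called lower, beside 9.11% of 14385 genes. Those 5 were Nfkbia, Nfkbiz, Tnfaip3, Tnip1 and Nfkb2. They were also the 5 called after samples of the same diet and number were summed over the batches, which left 12 samples, although matching numbers are not known to mark the same mouse. In that summed fit 1224 of 15224 genes were called lower.

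The difference HFLF minus HF asked what a return to low-fat food does, and it shares the HF samples with the difference HF minus LF. In batch 1, 0 of 10 members were called higher, beside 0.00693% of genes, which was 1 gene. At an unadjusted p under 0.05, 2 members (Tnip1 and Bcl3), both higher, passed in that comparison, beside 1566 genes (10.9%). Of those genes 694 were higher. DESeq2 and voom each called 0 members, beside 17 and 3 genes. In batch 2, 3 of 10 members were called higher, beside 8.89% of genes, and these were Nfkbiz, Tnfaip3 and Nfkb2. Among the lists described below, 13 of 20 immediate early genes were called higher there, with a median of 0.43. So were 2 of 11 markers of T cells and intraepithelial lymphocytes (Cd3e and Itgae), with a median of 0.44. The epithelial marker Tff3 and the myeloid marker Cd14 were called lower, and 0 of 13 stromal and endothelial markers were called. In the wider pathway 1 of 3 other subunits, 1 of 13 other inhibitors and deubiquitinases and 2 of 10 kinases were called higher in batch 2. So were 2 of 18 adaptors and ubiquitin ligases, 1 of 16 receptors, 0 of 6 ligands and 0 of 20 inflammatory targets. Called lower were 1 of the other inhibitors and 1 inflammatory target, beside 5.61% of genes. In the fit of both batches 1 of 10 members (Nfkbiz) was called higher, beside 5.44% of genes. In that fit 11 of 20 immediate early genes were called higher, Cd14 was called lower, and 0 of 11 lymphocyte markers were called. Of the wider pathway, 1 of 3 other subunits, 1 of 13 other inhibitors, 0 of 10 kinases and 3 of 18 adaptors were called higher in it. So were 1 of 16 receptors, 0 of 6 ligands and 2 of 21 inflammatory targets. Called lower were 2 of the other inhibitors and 2 inflammatory targets, beside 4.90% of genes. Tnfaip3 and Tnip1 also had an adjusted p under 0.05 there, at 0.0470 and 0.0240, with fold changes of 1.195 and 1.191, below the minimum of 1.2.

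The difference HFLF minus LF asked what remained after the return to low-fat food. Under edgeR it called 0 of 10 members in batch 1, in batch 2 and in both batches together, and DESeq2 and voom also called 0 in each. Over all genes edgeR called 0, 1 and 0 in the same fits. At an unadjusted p under 0.05 it had 4 members in batch 1 (Nfkbia, Nfkbiz, Tnfaip3 and Nfkb2), 0 in batch 2 and 0 in the fit of both batches. The shares of all genes at that level were 5.29%, 4.65% and 4.11%. In batch 1 the 4 members were all lower, as were 403 of the 763 genes. The largest of these differences was that of Nfkbiz in batch 1, with a log2 fold change of −0.38 ± 0.13 (SE) and an adjusted p of 0.792.

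The medians of the members' log2 fold changes in HF minus LF were −0.39 in batch 1, −0.12 in batch 2 and −0.24 in both batches. Over all genes tested the same medians were −0.004, −0.01 and −0.008. In HFLF minus HF the medians of the members were 0.17 in batch 1, 0.17 in batch 2 and 0.16 in both batches, against −0.003, 0.01 and 0.01 over all genes. In HFLF minus LF they were −0.19, 0.01 and −0.08, against 0.002, 0.005 and 0.009 over all genes.

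Groups were also compared by whether their samples overlapped at all. In batch 1 every HF sample was below every LF sample for 6 of 10 members, beside 7.33% of genes, and these were Nfkbia, Nfkbib, Nfkbiz, Tnfaip3, Bcl3 and Relb. For Relb the gap between the groups was only 0.0283 CPM. In batch 2 every HF sample was below every LF sample for 2 members (Nfkbiz and Tnip1), beside 13.5% of genes. Every HFLF sample was above every HF sample for 2 members in batch 1 (Nfkbia and Bcl3), beside 3.95% of genes. The same held for 2 members in batch 2 (Nfkbiz and Tnip1), beside 14.6% of genes. Nfkbiz was the only member with HF below LF without overlap in both batches, as were 355 (2.504%) of the 14180 genes tested in both. Every HFLF sample was below every LF sample for 1 member in batch 1 (Tnfaip3), beside 1.56% of genes, with nearest samples at 78.1 and 78.3 CPM, and for 0 members in batch 2, beside 0.696% of genes.

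**Figure D2:**
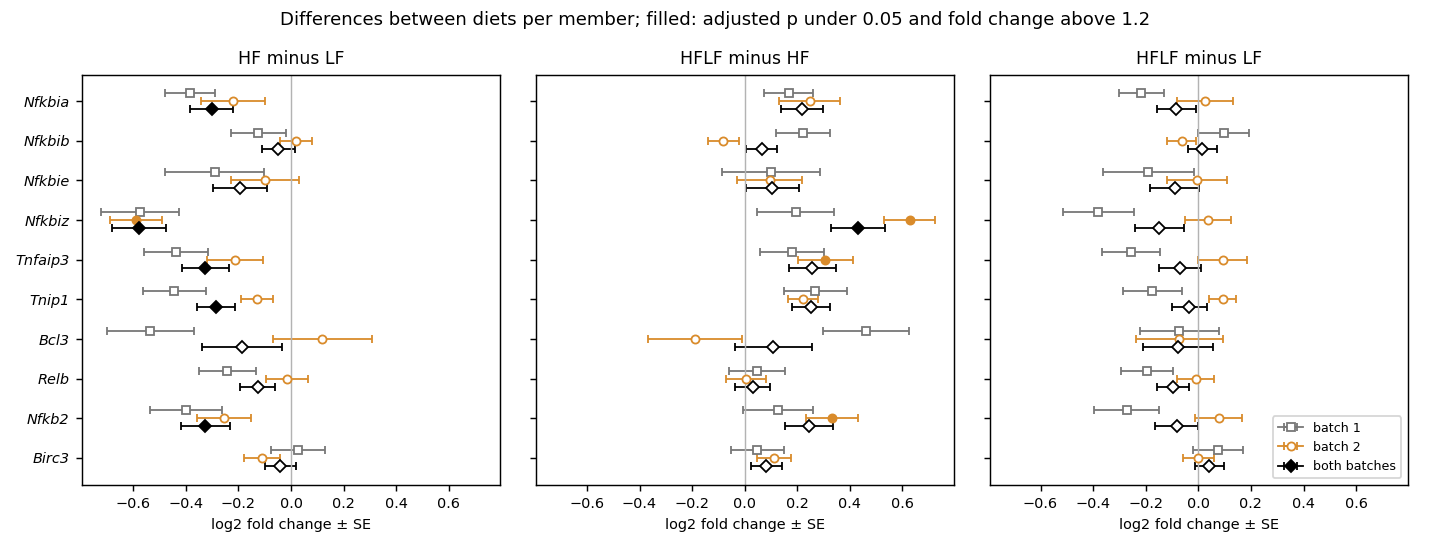
Log2 fold change of each member with its standard error in the 3 comparisons of diets, from the edgeR fits of batch 1 (squares), batch 2 (circles) and both batches (diamonds). Filled symbols mark an adjusted p under 0.05 with a fold change above 1.2. In HF minus LF the fit of both batches has 5 filled diamonds, at log2 fold changes between −0.58 and −0.29.

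Nfkbia encodes IκBα, the classical inhibitor that is degraded and resynthesized in each round of activation. It has Entrez ID 18035 and lies on the minus strand at chr12:55489409-55492647 of mm10. The study named Nfkbia, Nfkbiz and Tnfaip3 from its own comparison of HF and LF in this series, so the values of these 3 genes in that comparison are not evidence independent of that choice. In batch 1, Nfkbia measured 71.0, 83.3, 70.3 and 63.4 CPM in LF, 53.6, 54.9 and 56.9 CPM in HF, and 60.4, 58.0, 65.9 and 63.5 CPM in HFLF. The HF samples were the lowest 3 of that batch, with all 4 HFLF samples above them and 2 of those within the LF range. In batch 2, Nfkbia measured 79.2, 80.3, 64.2 and 71.7 CPM in LF, 73.4, 62.4 and 54.4 CPM in HF, and 86.0, 77.7, 82.3, 69.6 and 60.4 CPM in HFLF. There the 3 diets overlapped, and 2 of 3 HF samples lay below the lowest LF sample. The log2 fold change HF minus LF of Nfkbia was −0.38 ± 0.09 (SE, adjusted p = 0.139) in batch 1 and −0.22 ± 0.12 (adjusted p = 0.215) in batch 2. In both batches together Nfkbia fell by 18.9%, with a log2 fold change of −0.30 ± 0.08 and an adjusted p of 0.0124 from edgeR. Without LF replicate 2 of batch 1, the highest sample of its group for Nfkbia, Tnfaip3 and Tnip1, these 3 members missed the fold change minimum over both batches, at log2 fold changes of −0.25 for Nfkbia and −0.24 for each of the others, with adjusted p of 0.0344, 0.0320 and 0.0276. Nfkbia also missed it without HF replicate 3 of batch 2 (−0.26, adjusted p = 0.0347), and its call was kept under 30 of 32 alternatives. In HFLF minus HF its log2 fold change over both batches was 0.22 ± 0.08, with an adjusted p of 0.0628. A lower value in bulk epithelium can come from fewer cells of a type or from less RNA per cell, and these cannot be told apart for any member.

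Nfkbib encodes IκBβ, a slower classical inhibitor (Entrez ID 18036, chr7:28758251-28766524, minus strand). Its samples lay between 12.3 and 17.2 CPM. In batch 1 the 3 HF samples, from 12.3 to 13.4 CPM, were below the 4 LF samples, from 13.95 to 14.35 CPM, which varied little. In batch 2 the 3 diets overlapped between 15.2 and 17.2 CPM. The log2 fold changes HF minus LF of Nfkbib were −0.12 in batch 1, 0.02 in batch 2 and −0.05 in both batches, with adjusted p between 0.471 and 0.863. Nfkbie encodes IκBε, another cytoplasmic inhibitor (Entrez ID 18037, chr17:45555716-45563168, plus strand), and was the rarest member at 2.38 to 3.96 CPM. Its HF and LF samples overlapped in both batches. The log2 fold changes HF minus LF of Nfkbie were −0.29 in batch 1, −0.10 in batch 2 and −0.19 in both batches, with adjusted p between 0.153 and 0.608.

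Nfkbiz encodes IκBζ, a nuclear IκB protein that is itself a rapid NF-κB target and acts with the p50 subunit at a second wave of target genes. It has Entrez ID 80859 and lies on the minus strand at chr16:55811377-55838641. In batch 1, Nfkbiz measured 161, 176, 176 and 132 CPM in LF, 97.3, 125 and 103 CPM in HF, and 95.8, 144, 120 and 137 CPM in HFLF. The HF samples lay below all LF samples, and the HFLF samples spread from below the lowest HF sample into the LF range. In batch 2, Nfkbiz measured 145, 128, 128 and 102 CPM in LF, 79.6, 87.4 and 84.0 CPM in HF, and 143, 123, 135, 131 and 114 CPM in HFLF. There the HF samples were the lowest 3, and all 5 HFLF samples lay within the LF range. The log2 fold change HF minus LF of Nfkbiz was −0.57 ± 0.15 (SE, adjusted p = 0.144) in batch 1 and −0.59 ± 0.10 (adjusted p = 0.0142) in batch 2, where it was called. In both batches together Nfkbiz fell by 33.1%, with a log2 fold change of −0.58 ± 0.10 and an adjusted p of 0.00219 from edgeR.

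The difference HFLF minus HF of Nfkbiz was a log2 fold change of 0.19 ± 0.15 (adjusted p = 0.607) in batch 1. In batch 2 Nfkbiz rose by 0.63 ± 0.10 in log2, with an adjusted p of 0.00872 and 5 of 5 HFLF samples above every HF sample. Over both batches it rose by 0.43 ± 0.10 in log2, with an adjusted p of 0.0140. Leaving out a single HF library of batch 2 could end its batch 2 calls. Without HF replicate 2 of batch 2 the adjusted p of Nfkbiz in batch 2 was above 0.05 in both comparisons, and without HF replicate 3 it was above 0.05 in HF minus LF. The fold changes stayed close to those with all samples: without HF replicate 2 the log2 fold changes of Nfkbiz were −0.61 (adjusted p = 0.0720) in HF minus LF and 0.65 (adjusted p = 0.0521) in HFLF minus HF, and without HF replicate 3 its HF minus LF value was −0.59 (adjusted p = 0.0547). Over both batches Nfkbiz was called in HF minus LF under 32 of 32 alternatives, with log2 fold changes from −0.64 to −0.49. It was also called in HFLF minus HF under 32 of 32 alternatives there, from 0.36 to 0.49.

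Bcl3 encodes a nuclear IκB protein that binds dimers of the p50 and p52 subunits (Entrez ID 12051, chr7:19808462-19822755, minus strand). In batch 1, Bcl3 measured 22.4, 26.3, 23.7 and 30.7 CPM in LF, 19.6, 18.4 and 15.3 CPM in HF, and 25.6, 31.5, 20.1 and 20.8 CPM in HFLF. The HF samples were the lowest 3 of that batch. In batch 2, Bcl3 measured 25.3, 21.0, 27.9 and 19.3 CPM in LF, 23.2, 30.8 and 22.2 CPM in HF, and 21.4, 21.9, 31.7, 16.1 and 19.9 CPM in HFLF. There no HF sample lay below the LF range, and HF replicate 2 was above it. The log2 fold change HF minus LF of Bcl3 was −0.53 ± 0.16 (SE, adjusted p = 0.160) in batch 1 and 0.12 ± 0.19 (adjusted p = 0.685) in batch 2. The difference between those values was 0.65 in log2, with an adjusted p of 0.728 in the edgeR test of diet by batch.

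Tnfaip3 encodes A20, a ubiquitin-editing enzyme that shuts down signalling from cytokine and Toll-like receptors and guards epithelial cells against death (Entrez ID 21929, chr10:19000910-19015410, minus strand). In batch 1, Tnfaip3 measured 78.3, 108, 80.8 and 79.3 CPM in LF, 60.1, 70.8 and 60.9 CPM in HF, and 68.5, 78.1, 66.0 and 77.4 CPM in HFLF. The HF samples lay below all LF samples, the HFLF samples lay below all LF samples too and overlapped HF, and LF replicate 2 stood apart at the top. In batch 2, Tnfaip3 measured 78.6, 88.7, 82.3 and 77.4 CPM in LF, 78.3, 66.1 and 67.0 CPM in HF, and 107, 73.9, 82.3, 93.8 and 79.4 CPM in HFLF. There 2 of 3 HF samples were below the lowest LF sample, and the other lay inside the LF range. The log2 fold change HF minus LF of Tnfaip3 was −0.44 ± 0.12 (SE, adjusted p = 0.160) in batch 1 and −0.21 ± 0.11 (adjusted p = 0.175) in batch 2. In both batches together Tnfaip3 fell by 20.2%, with a log2 fold change of −0.33 ± 0.09 and an adjusted p of 0.0129 from edgeR. In HFLF minus HF it rose in batch 2 by 0.31 ± 0.10 in log2, with an adjusted p of 0.0495, and 4 of 5 HFLF samples were above every HF sample. That batch 2 call of Tnfaip3 was kept in 4 of the 12 fits that left out a single sample, and its log2 fold change in them ran from 0.23 to 0.39. It was lost without LF replicate 1, 2 or 3, HFLF replicate 1, 3 or 4 or HF replicate 2 or 3, with adjusted p from 0.0527 to 0.226. It was kept under 8 of 20 alternatives in all, and lost with RLE factors (adjusted p = 0.0537), with no filter (0.0588), with the 2 diets fitted alone (0.0701) and with the DESeq2 prior, where the log2 fold change was 0.26.

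Tnip1 encodes ABIN-1, a ubiquitin-binding partner of A20 (Entrez ID 57783, chr11:54910787-54962940, minus strand). In batch 1, Tnip1 measured 103, 111, 106 and 89.4 CPM in LF, 72.3, 91.0 and 62.6 CPM in HF, and 89.9, 98.4, 84.0 and 90.5 CPM in HFLF. HF replicate 2 lay above the lowest LF sample, and the other 2 HF samples were the lowest of the batch. In batch 2, Tnip1 measured 88.9, 85.6, 87.1 and 87.4 CPM in LF, 82.5, 75.3 and 81.4 CPM in HF, and 101, 85.5, 91.6, 92.3 and 94.7 CPM in HFLF. There all HF samples lay below all others, and 4 of the HFLF samples were above every LF sample. The log2 fold change HF minus LF of Tnip1 was −0.44 ± 0.12 (SE, adjusted p = 0.155) in batch 1 and −0.13 ± 0.06 (adjusted p = 0.145) in batch 2. In both batches together Tnip1 fell by 18.0%, with a log2 fold change of −0.29 ± 0.07 and an adjusted p of 0.00966 from edgeR. That call was kept under 26 of 32 alternatives. It was lost with voom (−0.22), with the DESeq2 prior (−0.26) and without LF replicate 2 or 3 or HF replicate 1 or 3 of batch 1 (−0.26 to −0.21 in log2), each time because the fold change was below 1.2. In HFLF minus HF its log2 fold change over both batches was 0.25 ± 0.07, with an adjusted p of 0.0240 and a fold change of 1.191, short of the 1.2 needed.

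Relb encodes RelB, the subunit that pairs with p52 in the alternative pathway (Entrez ID 19698, chr7:19606222-19629438, minus strand), and lies close to Bcl3 on the same chromosome. In batch 1 its HF samples were at 51.2, 60.9 and 54.0 CPM and its LF samples at 65.7, 73.8, 60.9 and 61.4 CPM. These groups were separated by only 0.0283 CPM, and the HFLF samples, at 51.5 to 63.1 CPM, covered the range of both in part. In batch 2 the Relb samples of the 3 diets overlapped between 61.9 and 81.5 CPM. The log2 fold changes HF minus LF of Relb were −0.24 in batch 1, −0.02 in batch 2 and −0.13 in both batches, with adjusted p of 0.212, 0.902 and 0.156.

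Nfkb2 encodes p100, which holds RelB inactive as an inhibitor until it is cut to the p52 subunit (Entrez ID 18034, chr19:46304737-46312090, plus strand). In batch 1, Nfkb2 measured 60.0, 88.7, 78.7 and 75.0 CPM in LF, 57.4, 64.3 and 50.3 CPM in HF, and 62.8, 73.0, 56.2 and 58.2 CPM in HFLF. LF replicate 1 was low, within the range of the HF samples, so the groups overlapped. In batch 2, Nfkb2 measured 83.7, 76.2, 72.2 and 67.1 CPM in LF, 71.3, 59.2 and 57.6 CPM in HF, and 86.6, 72.3, 90.1, 76.2 and 69.3 CPM in HFLF. There 2 of 3 HF samples lay below every LF and HFLF sample, and HF replicate 1 lay among them. The log2 fold change HF minus LF of Nfkb2 was −0.40 ± 0.14 (SE, adjusted p = 0.166) in batch 1 and −0.25 ± 0.10 (adjusted p = 0.109) in batch 2. In both batches together Nfkb2 fell by 20.3%, with a log2 fold change of −0.33 ± 0.09 and an adjusted p of 0.0149 from edgeR. That call was kept under 31 of 32 alternatives and lost without HF replicate 3 of batch 1 (−0.28, adjusted p = 0.0504). In HFLF minus HF it rose in batch 2 by 0.33 ± 0.10 in log2, with an adjusted p of 0.0352, and its value over both batches was 0.24 ± 0.09, with an adjusted p of 0.0627. The batch 2 call of Nfkb2 was kept in 7 of the 12 fits that left out a single sample, with log2 fold changes from 0.27 to 0.43. It was lost without HFLF replicate 1, 3 or 4 or HF replicate 2 or 3, with adjusted p from 0.0595 to 0.189.

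Birc3 encodes cIAP2, a ubiquitin ligase of the TNF receptor complex that is itself an NF-κB target (Entrez ID 11796, chr9:7848701-7873170, minus strand). Its samples lay between 43.4 and 56.0 CPM in batch 1 and between 50.6 and 61.4 CPM in batch 2, and its HF and LF samples overlapped in both batches. The log2 fold changes HF minus LF of Birc3 were 0.03 in batch 1, −0.11 in batch 2 and −0.04 in both batches, with adjusted p of 0.887, 0.261 and 0.625.

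Whether a difference between diets itself differed between the batches was tested with the term of diet by batch in edgeR. For HF minus LF, 0 members and 0 of 14385 genes had an adjusted p under 0.05, and at an unadjusted p under 0.05 there were 2 members (Tnip1 and Bcl3) and 943 genes. For HFLF minus HF, 0 members and 0 genes passed after adjustment, and 3 members (Nfkbib, Nfkbiz and Bcl3) and 1105 genes did so before it. DESeq2 and voom also gave 0 members after adjustment in each.

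The wider pathway was described from lists of other genes, with the calls of the fit of both batches in HF minus LF and with medians beside −0.008 for all genes. Of all 14385 genes, 8.995% were called higher and 9.11% lower in that fit. Of 3 other subunits, 0 were called higher and 1 lower, with a median of −0.22. The gene called was Rel, whose log2 fold change was −0.33 ± 0.11 with an adjusted p of 0.0280, and which was called under 24 of 32 alternatives. Of 14 other inhibitors and deubiquitinases, 13 were tested, as Otulin was not in the table under that symbol, and 2 were called higher and 2 lower with a median of 0.002. Those lower were Nfkbid, which encodes another nuclear IκB protein, at −0.57 in log2, and Zc3h12a, which encodes the ribonuclease Regnase, at −0.54. Those higher were Commd1 at 0.39 and Nkrf at 0.28 in log2. Of 10 genes of the IκB kinase complex and its upstream kinases, 0 were called higher and 2 lower, with a median of −0.05. These were Map3k14, which encodes the kinase NIK of the alternative pathway, at −0.33, and Ikbke at −0.32 in log2.

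Of 18 adaptors and ubiquitin ligases, 1 was called higher and 4 lower, with a median of −0.02. The largest of these log2 fold changes were −0.52 for Card10, −0.40 for Traf5, −0.39 for Rnf31 and 0.33 for Bcl10. Of 18 receptors, 16 were tested, and 1 was called higher (Tnfrsf12a at 0.73 in log2) and 2 lower (Nod2 at −0.43 and Nod1 at −0.37), with a median of −0.008. Nod1 was called under 32 of 32 alternatives, Tnfrsf12a under 29 and Nod2 under 20. Tnfrsf12a rested in part on HF replicate 3 of batch 1, without which its log2 fold change was 0.38 (adjusted p = 0.104), and with voom it was 0.40 (adjusted p = 0.0929). Of 11 ligands, 6 were tested and 0 were called, with 1 at an unadjusted p under 0.05 and a median of 0.01. DESeq2 called 0 ligands and voom 1. The most abundant ligand was Il18, with a log2 fold change of 0.08. Of 28 inflammatory targets, 21 were tested, and 1 was called higher (Cxcl5 at 1.00 in log2) and 2 lower (Cxcl16 at −0.43 and Gadd45b at −0.42), with a median of −0.13. Gadd45b was called under 32 of 32 alternatives, Cxcl16 under 31 and Cxcl5 under 22. Without HF replicate 3 of batch 1 the log2 fold change of Cxcl5 was 0.63 (adjusted p = 0.167). It was not called by voom (0.80, adjusted p = 0.0898) or with the 2 diets fitted alone (1.01, adjusted p = 0.0525). DESeq2 gave 1.01, and 0.34 with its prior, without an adjusted p in either, so no call could be made there. Without LF replicate 2 or 3 of batch 1, LF replicate 3 of batch 2 or HF replicate 2 or 3 of batch 2 its log2 fold change lay between 0.92 and 1.01, with adjusted p from 0.0563 to 0.0704. The 7 inflammatory targets not tested were Cxcl2, Ccl2, Il6, Lcn2, Ptgs2, Plau and Mmp9.

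Immediate early genes, which many stimuli induce within minutes and of which several are NF-κB targets or partners, were counted in the same way. Of 20 such genes, 0 were called higher and 17 lower in HF minus LF over both batches, beside the 9.11% of all genes called lower, with a median of −0.66. The largest log2 fold changes were −1.20 for Nr4a1, −1.17 for Egr3, −1.12 for Fosb and −0.77 for Egr2. In batch 1 the median was −0.76 with 0 called under edgeR, 16 at an unadjusted p under 0.05 (22.2% of all genes), 16 called lower by DESeq2 (1.497% of all genes) and 18 by voom (8.75%). In batch 2 the median was −0.48 with 11 called lower, beside 4.4% of all genes. That count ran from 0 to 14 under the alternatives, with 0 without HF replicate 2 and 1 without HF replicate 3 of batch 2, where all genes called lower went from 633 to 11 and 27. The median ran from −0.62 to −0.33. Their summed level in batch 1 was 8550, 9320, 9241 and 8188 CPM in LF, 5633, 6498 and 4415 CPM in HF, and 6103, 8087, 6680 and 6271 CPM in HFLF. In batch 2 it was 9641, 10089, 8655 and 9115 CPM in LF, 7989, 6673 and 6100 CPM in HF, and 9778, 9017, 9455, 9781 and 8289 CPM in HFLF. Fos was the most abundant of them over all samples of each batch, and the summed level of every HF sample lay below that of every LF sample of its batch. The summed level moved the same way as the members called, and its part in their differences was not tested.

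The labelled tissue was checked against markers. The 14 epithelial markers were all detected and together made 29139 to 44851 CPM per sample, with Muc2 the most abundant. In HF minus LF over both batches 1 of 14 was called, Tff3 at 0.42 in log2, and the median was 0.03. Muc2 went the other way without being called, at −0.31 in log2 (adjusted p = 0.154) over both batches and −0.56 (adjusted p = 0.0766) in batch 2. In batch 2 Muc2 averaged 21965 CPM in LF, 14866 CPM in HF and 19849 CPM in HFLF. Their summed level in batch 1 was 29139, 29886, 38761 and 32813 CPM in LF, 35646, 32579 and 33496 CPM in HF, and 44660, 34589, 34118 and 36442 CPM in HFLF. In batch 2 it was 40132, 36929, 44851 and 40185 CPM in LF, 37216, 33647 and 36345 CPM in HF, and 36581, 37692, 32426, 39862 and 44842 CPM in HFLF. The groups overlapped in both batches.

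Markers of other cells were present at far lower levels. Of 13 markers of T cells and intraepithelial lymphocytes, 11 were tested and 0 called in HF minus LF over both batches, with 2 at an unadjusted p under 0.05 and a median of −0.33. DESeq2 and voom each called 1 of them lower. Their summed level in batch 1 was 31.4, 46.8, 38.8 and 36.0 CPM in LF, 29.4, 28.3 and 38.0 CPM in HF, and 20.9, 34.0, 26.2 and 24.3 CPM in HFLF. In batch 2 the sum was 27.3, 24.4, 22.6 and 23.7 CPM in LF, 20.3, 26.6 and 24.4 CPM in HF, and 27.8, 32.1, 31.6, 27.8 and 26.7 CPM in HFLF. There every HFLF sum lay above every HF sum, with nearest samples at 26.7 and 26.6 CPM. The most abundant of these lymphocyte markers was Ptprc, with a log2 fold change of 0.003. Of 7 markers of B and plasma cells, 6 were in the table and 1 was tested (Cd79b at −0.26 in log2), with 0 called under edgeR, DESeq2 or voom and 0 at an unadjusted p under 0.05. No marker of any list that was in the table had 0 counts over a whole batch. Their summed level was 0.721, 0.962, 0.597 and 1.26 CPM in LF, 0.906, 0.213 and 0.789 CPM in HF, and 0.610, 1.48, 0.648 and 0.996 CPM in HFLF of batch 1. In batch 2 it was 1.13, 0.441, 0.835 and 0.801 CPM in LF, 1.02, 0.234 and 1.19 CPM in HF, and 1.62, 1.27, 0.505, 0.732 and 1.60 CPM in HFLF, so B and plasma cell markers were close to the floor in every sample.

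Of 11 myeloid markers 10 were in the table and tested, with Cd14 called higher at 0.35 and C1qc called lower at −1.29 in log2, and the median was −0.27. Cd14 was called under 32 of 32 alternatives and C1qc under 21. Cd14 was the most abundant of them over all samples of each batch, and epithelial cells can express it. The summed level of the myeloid markers in batch 1 was 37.0, 34.9, 34.4 and 36.6 CPM in LF, 40.3, 40.2 and 45.3 CPM in HF, and 39.4, 46.8, 36.5 and 32.4 CPM in HFLF. In batch 2 it was 44.4, 39.7, 41.1 and 44.9 CPM in LF, 48.0, 44.3 and 46.8 CPM in HF, and 43.1, 37.8, 42.4, 37.4 and 38.5 CPM in HFLF. In batch 1 every HF sum lay above every LF sum, and in batch 2 every HF sum lay above every HFLF sum. Of 15 stromal and endothelial markers, 14 were tested, and 1 was called lower (Pdgfra at −1.20 in log2, called under 18 of 32 alternatives), with a median of −0.86. The stromal median was −0.11 in batch 1 and −1.25 in batch 2, and over both batches it ran from −1.21 to −0.11 under the alternatives, the last with the DESeq2 prior. In batch 1 the stromal median ran from −0.52 to 0.42 and so had no fixed sign, at 0.42 without HF replicate 3. In batch 2 it ran from −1.77 to −0.19, and the stromal markers called lower, 1 with all samples, ran from 0 to 8, with 8 without LF replicate 4, 4 without HFLF replicate 1, 3 without HFLF replicate 2 and 0 without LF replicate 1 or 3 or HF replicate 2 or 3. Their summed level in batch 1 was 28.7, 31.5, 51.0 and 38.5 CPM in LF, 41.7, 51.9 and 7.91 CPM in HF, and 84.6, 115, 25.8 and 69.4 CPM in HFLF. In batch 2 it was 62.4, 36.3, 75.9 and 25.4 CPM in LF, 30.4, 14.7 and 25.2 CPM in HF, and 49.2, 20.8, 18.2, 37.1 and 28.5 CPM in HFLF. Col3a1 was the most abundant of the stromal markers over all samples of each batch. The part of these other cells in the members' differences was not tested.

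**Figure D3:**
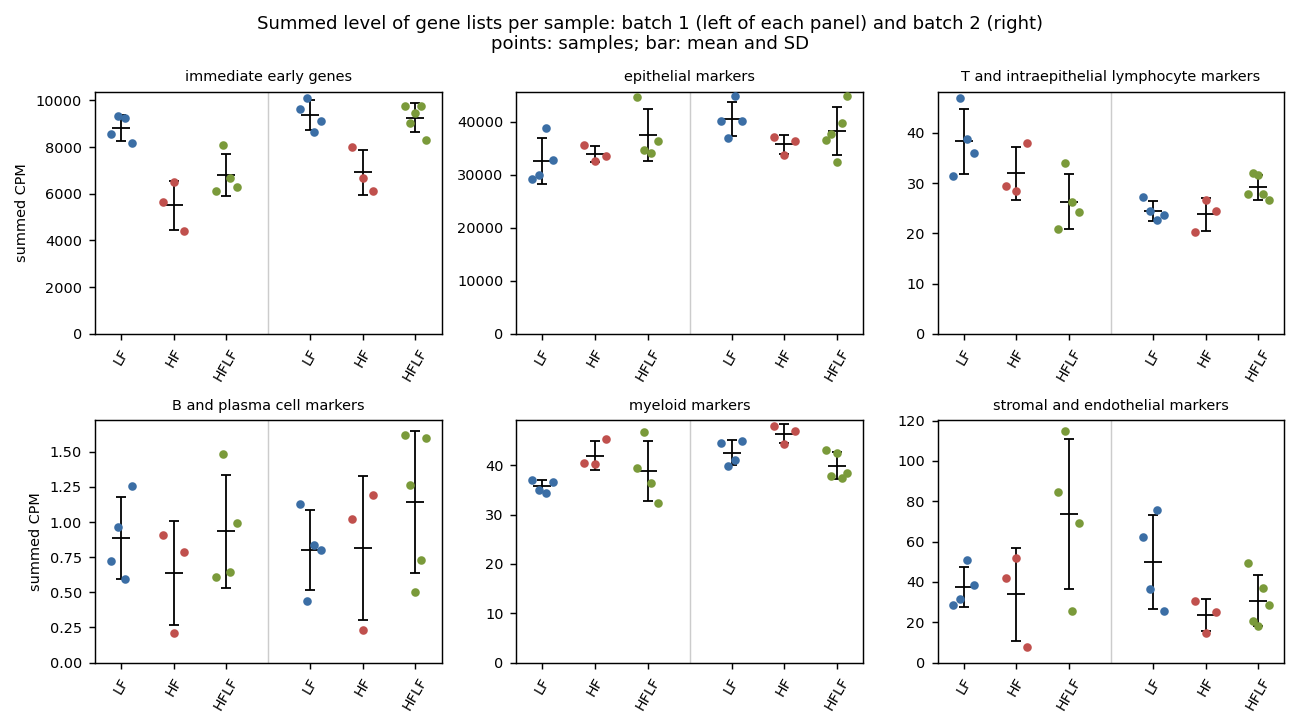
Summed level of 6 gene lists in CPM in each sample, with axes that start at 0. Points are samples, bars are the mean and SD, and batch 1 is left of the vertical line and batch 2 right of it. The sums of the immediate early genes in HF lie below those in LF in both batches, from 4415 to 6498 CPM against 8188 to 9320 CPM in batch 1.

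The genes whose levels followed each member most closely were found from log2 CPM centred within each batch, over 23 samples and 14178 genes. These values are descriptions, since the samples share diets. Nfkbiz was followed by Ankrd16 (Pearson r = 0.949) and Cdc42bpg (r = 0.939). Nfkb2 was followed by Unc45a (r = 0.940) and Egr3 (r = 0.939), and Tnip1 by Ccdc88c (r = 0.933) and Mir24-2 (r = 0.928). For Tnfaip3 these were Inadl (r = 0.897) and Znf512b (r = 0.887), and for Nfkbia Cxcl16 (r = 0.813) and Rnd3 (r = 0.797). Birc3 had 2610008E11Rik (r = 0.861) and Primpol (r = 0.843), and Bcl3 had Rrs1 (r = 0.858) and Atxn7l3 (r = 0.838). Relb had Zfp219 (r = 0.815) and H2-Ke6 (r = 0.80), Nfkbib had Tldc1 (r = 0.812) and 0610031J06Rik (r = 0.783), and Nfkbie had Fam83h (r = 0.720) and Ncmap (r = 0.6997). Among the members themselves, Tnfaip3 was closest to Nfkb2 (r = 0.806), and Tnip1, Nfkbiz and Nfkbia were each closest to Tnfaip3, with r = 0.804, 0.762 and 0.715. The others were less close to any member, at r = 0.561 for Relb, 0.474 for Bcl3, 0.372 for Nfkbie, 0.368 for Birc3 and 0.353 for Nfkbib. For every member other genes followed it more closely than any member did: the closest member ranked from 41 for Nfkbia to 1971 for Birc3 among all genes, and 875 for Nfkbiz.

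Promoter sequences, as the 250 bases before each start in RefSeq on GRCm38.p6, the assembly of mm10, were found for 8 of 10 members in 11 entries. Nfkbiz and Relb had no entry. The kB consensus, searched on both strands with overlaps counted, occurred in 5 of these 8 members, and in 7.25% of all 32851 promoters and 8.23% of 27025 genes. The AP-1 letters TGANTCA occurred in 3 of the 8 members (Nfkbie, Tnfaip3 and Nfkb2), and in 6.75% of all promoters and 7.82% of genes. The CRE letters TGACGTCA occurred in 0 of the 8 members, and in 1.55% of all promoters and 1.77% of genes. Stretches with kB letters are shown because 4 of the 5 members called lower in HF over both batches (Nfkbia, Tnfaip3, Tnip1 and Nfkb2) had them, as did Nfkbie. Each reads 5′ to 3′ on the strand of its gene, the capitals mark letters that match the kB consensus on either strand, and a match is a description and not evidence of binding.
Nfkbia, chr12:55492648-55492696, minus strand: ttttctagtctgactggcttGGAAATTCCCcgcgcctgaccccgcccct
Tnfaip3, outer start, chr10:19015411-19015555, minus strand: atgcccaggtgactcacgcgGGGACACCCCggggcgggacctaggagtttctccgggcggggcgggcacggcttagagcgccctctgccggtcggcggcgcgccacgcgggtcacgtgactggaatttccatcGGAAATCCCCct
Tnip1, chr11:54962967-54963018, minus strand: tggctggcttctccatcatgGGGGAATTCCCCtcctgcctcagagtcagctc
Nfkb2, first start, chr19:46304678-46304736, plus strand: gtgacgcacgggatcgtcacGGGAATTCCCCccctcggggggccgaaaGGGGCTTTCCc
Nfkbie, chr17:45555574-45555623, plus strand: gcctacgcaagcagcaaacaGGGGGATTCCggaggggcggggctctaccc
In the Nfkbia stretch the match started 29 bases before the transcription start, and in Nfkbie 106 bases before it. Tnfaip3 had matches at 125 and 12 bases before its outer start. The matches of Tnip1 overlapped one another at 56 to 58 bases before the start, and the first start of Nfkb2 had overlapping matches at 38 and 39 bases and a separate match at 11 bases before it. Not shown are matches of the other starts of Nfkb2, at 236 bases before the middle start and 225 bases before the last. The inner start of Tnfaip3 had none. The promoter entries of Nfkbib, Bcl3 and Birc3 held no kB letters in this window.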

How the data were processed

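The counts were deposited by the authors as raw reads per gene; the submitters' processing notes name cutadapt 1.2.1, STAR 2.5 and featureCounts 1.5.0-p1 on mm10. The sources used here do not say whether strand was used or how reads with several alignments were handled. Each batch, and both batches with batch as a term, was fitted with edgeR 4.0.16 (TMM factors, filterByExpr by diet, quasi-likelihood F test) in R 4.3.3, with all 3 diets in a fit and p-values adjusted by Benjamini-Hochberg over all genes tested. DESeq2 1.42.0 and limma 3.58.1 were run as alternatives. Exon lengths are unions of GENCODE M21 exons. All 10 members are named. Of each other list, genes called in HF against LF over both batches are named, or the 4 with the largest fold change where more were called, or the most abundant gene where none was, with the 2 genes most correlated with each member. The members and lists were chosen with earlier results of these data known. The code was tested on simulated counts.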

Additional observations from a re-analysis of the deposited data

Results flagged for a closer look

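Each group of 4 or 5 samples was searched for a sample far from the others in the CPM of each member, and chance marks about 1 group in 20. Of 40 such groups, 3 held one. The HF groups, with 3 samples each, were too small for this search and were left out of it. Tnfaip3 in LF replicate 2 of batch 1 measured 107.883 CPM, while the other 3 samples lay between 78.3 and 80.8 CPM. Relb in HFLF replicate 3 of batch 2 measured 81.4668 CPM, against 61.9 to 66.8 CPM in the other 4. Nfkbib in LF replicate 3 of batch 2 measured 16.8541 CPM, against 16.07 to 16.18 CPM, a group with little spread. Without LF replicate 2 of batch 1, the log2 fold change HF minus LF of Tnfaip3 over both batches was −0.24, against −0.33 with it, and its adjusted p in edgeR was 0.0320.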

How the results depend on the processing

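The alternatives were other tools (DESeq2 with and without a prior on fold changes, limma voom with sample weights), RLE factors, no filter on low counts, the 2 diets of a comparison fitted alone, no minimum fold change, a replicate block, samples of the same diet and number summed over batches, and each sample left out in turn. Those for the test of diet by batch, for groups that do not overlap and for genes of the other lists were chosen after seeing the data.

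In HF minus LF of batch 1, where edgeR called 0 members, DESeq2 called 4 with or without the prior and voom called 7, and the cause was not tested. Leaving out single samples gave 0 to 3 members there, with 3 (Nfkbiz, Tnfaip3 and Tnip1) without HF replicate 2, where genes called lower went from 0 to 587 of 14620. In batch 2 the count of 1 in HF minus LF was 2 (Nfkbiz and Nfkb2) with the replicate block. Genes called lower were then 1188, against 633, though replicate numbers are not known to pair samples. With single samples left out the count was 0 or 1. It was 0 without HF replicate 2 or HF replicate 3, where genes called lower fell to 11 and 27. The adjusted p of Nfkbiz was then 0.0720 and 0.0547, with log2 fold changes of −0.61 and −0.59. The 3 members called in HFLF minus HF of batch 2 were 2 to 4 under the other alternatives and 0 to 3 with single samples left out. They were 0 without HF replicate 2, and 1 (Nfkbiz) without HF replicate 3 or without HFLF replicate 1, 3 or 4. Genes called higher, 1278 with all samples, were 9 and 486 without those HF samples and 623, 1155 and 673 without those HFLF samples.

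Over both batches, the 5 members called in HF minus LF were 4 or 5 under the other alternatives. They were 4, without Tnip1, with voom (1332 genes called lower) and with the DESeq2 prior (1078), and 5 with samples summed (1224). With single samples left out they were 2 to 5. Without LF replicate 2 of batch 1 they were 2 (Nfkbiz and Nfkb2): Nfkbia, Tnfaip3 and Tnip1 missed the fold change minimum, at log2 fold changes of −0.25, −0.24 and −0.24, with adjusted p under 0.05. Without HF replicate 3 of batch 1 they were 3 (Nfkbia, Nfkbiz and Tnfaip3). Genes called lower were 812 and 728 in these fits, against 1311. The 1 member called in HFLF minus HF over both batches became 3 with no minimum fold change, by its construction, and 5 with the replicate block, and the cause was not tested. Genes called higher were 783, 1215 and 938 in turn. The member count was 1 (Nfkbiz) with samples summed over batches, beside 790 genes called higher. With single samples left out it ranged from 1 to 4. It was 4 without HFLF replicate 3 or HF replicate 2 of batch 1 or HF replicate 1 of batch 2, beside 993, 1420 and 693 genes. It was 3 without HFLF replicate 2 of batch 2 (787 genes), and 2 without HFLF replicate 1 of batch 1 or HF replicate 3 of batch 2 (1156 and 481 genes). The count of 0 in HFLF minus LF was 0 under every alternative in each fit, and so was that of the test of diet by batch.

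The members whose groups do not overlap ranged with single samples left out from 5 to 8 in HF below LF of batch 1 (8 without HF replicate 2, beside 20.2% of genes) and from 2 to 4 in HFLF above HF of batch 1 (4 without HF replicate 2, beside 13.1%). In batch 2 they ranged from 2 to 6 in HF below LF (6 without HF replicate 1, beside 20.3% of genes, and 5 without LF replicate 4, beside 22.7%) and from 2 to 4 in HFLF above HF (4 without HF replicate 1, beside 19.8%). The shares of genes with all samples are given in the report, and leaving out any sample of either group compared raised them. With RLE factors the members in HF below LF of batch 1 were 5, without Relb, beside 6.827% of genes. With CPM from the counted reads alone they were 6, with Nfkbie in place of Relb, beside 6.22%.

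Of the fold changes, 118 were recomputed. Directions reversed only among those that were small, at most 0.12 in log2. Relb in HFLF minus HF of batch 2 was −0.00227 with DESeq2, −0.00224 with its prior, −0.00873 with voom, −0.00227 with RLE factors and −0.0122 with no filter. With voom, Nfkbia in HFLF minus LF of batch 2 was −0.00900, and over both batches Nfkbib was −0.00707 in HFLF minus HF and −0.0227 in HFLF minus LF, and Tnip1 0.000180 in HFLF minus LF. With the replicate block, Nfkbie in HFLF minus LF of batch 2 was 0.0155 and Ptprc in HF minus LF over both batches −0.0205, while summed samples gave Ptprc −0.0108. The cause was not tested.

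With single samples left out, these ranged across 0. In HF minus LF they were Birc3 of batch 1 (−0.0619 to 0.0907), in batch 2 Bcl3 (−0.0319 to 0.215), Nfkbib (−0.0132 to 0.0478) and Relb (−0.0577 to 0.0233), and Ptprc over both batches (−0.0939 to 0.0968). In HFLF minus HF they were in batch 1 Birc3 (−0.0142 to 0.138), Nfkbie (−2.67e-06 to 0.223) and Relb (−0.00246 to 0.117), in batch 2 Nfkbie (−0.00244 to 0.217) and Relb (−0.0785 to 0.0473), and Relb over both batches (−0.0213 to 0.0584). In HFLF minus LF they were Bcl3 of batch 1 (−0.216 to 0.0245), Nfkbib over both batches (−0.0161 to 0.0315), and in batch 2 Bcl3 (−0.243 to 0.0248), Birc3 (−0.0279 to 0.0285), Nfkbia (−0.0360 to 0.0929), Nfkbie (−0.0527 to 0.0451), Nfkbiz (−0.0499 to 0.111) and Relb (−0.0899 to 0.0231). The immediate early genes had a median between −0.73 and −0.48 in HF minus LF over both batches, with 15 to 17 called lower. In batch 2 their count ran from 0 to 14, at 0 without HF replicate 2, 1 without HF replicate 3, and 2, 4 and 3 without LF replicates 1, 2 and 3, beside 11, 27, 39, 220 and 35 of all genes called lower. Of the other list genes called over both batches, Rel was called under 24 of 32 alternatives, Nkrf under 28, Ikbke under 27, Map3k14 under 30, Traf5 under 28, and Egr2 and Tff3 under 31 each.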
